A study of Mus musculus with 32 samples.

Results

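The 54 regions described here are H3K4me1 peaks of control cells that also touched H3K27me3 in the same cells. They were chosen from the control peak lists themselves: peaks of control H3K4me1 replicate 1 that were autosomal and shorter than 5 kb, overlapped a peak of replicate 2, and overlapped by at least 1 bp a peak of at least 1 control H3K27me3 library. Of 18282 peaks of control H3K4me1 replicate 1, 16110 were autosomal and under the width limit, 12452 of these were also seen in replicate 2, and 54 (0.434%) touched H3K27me3. The marks were mapped by CUT&Tag, in which an antibody brings a transposase to a histone mark and the DNA beside it is released and sequenced.

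The cells were HoxB8 cells, mouse bone marrow progenitors immortalised by an estrogen-dependent HoxB8 and grown with stem cell factor. All had spent 48 h without estrogen when they were collected. The double cells carried the Asxl1 guide B2 and the vector pMICH-CSF3R-T618I. The CSF3R cells carried a non-targeting guide and pMICH-CSF3R-T618I, the Asxl1 guide cells carried guide B2 and the empty pMICH vector, and the control cells carried a non-targeting guide and the empty vector. Each mark had 2 double, 3 CSF3R, 3 Asxl1 guide and 2 control libraries, and a merged peak list of 2 IgG libraries served as background. CSF3R T618I is an activating form of the receptor for granulocyte colony-stimulating factor, and the guide was made to truncate Asxl1, a partner of the deubiquitinase Bap1. The labels name 1 Asxl1 guide and do not say whether libraries came from separate cultures or clones. The p-values thus reach no further than these libraries, and the variance behind them is partly borrowed from other regions.

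H3K4me1 is laid down by the MLL3 and MLL4 methyltransferases and marks enhancers and the flanks of promoters, active or poised. H3K27me3 is made by Polycomb repressive complex 2 and H2AK119ub by Polycomb repressive complex 1, often over the same CpG-rich promoters of silent genes, and Bap1 with an Asxl protein removes H2AK119ub. A site with H3K4me1 and H3K27me3 together is often called a poised enhancer, but the calls of separate libraries, and of many cells at once, cannot tell whether both marks lay on the same chromosome copies.

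Promoters near these regions held, at the median, more CpG dinucleotides than promoters in general. Start sites were known for 48 of the 54 regions and lay within 5 kb of 23 of them (47.9%), against 25.9% of the 12067 other control H3K4me1 regions with start-site data. The 29 promoters concerned, each 300 bases long, had a median of 20 CpG, against 7 over all 32851 promoters of the table. Of the 29, 22 lay wholly inside control H3K27me3, 20 wholly inside control H2AK119ub, and 5 touched control H3K4me1. No test was made of these shares, and CpG was not counted at promoters near the other control H3K4me1 regions. Promoters beside 6 regions that the results below turn on are printed from RefSeq (GRCm38.p6, the coordinates of mm10), 5′ to 3′ on the gene's strand, with CpG dinucleotides in capitals. They are shown because control H3K27me3 both touched each region and covered the neighbouring start site.
Zfyve28: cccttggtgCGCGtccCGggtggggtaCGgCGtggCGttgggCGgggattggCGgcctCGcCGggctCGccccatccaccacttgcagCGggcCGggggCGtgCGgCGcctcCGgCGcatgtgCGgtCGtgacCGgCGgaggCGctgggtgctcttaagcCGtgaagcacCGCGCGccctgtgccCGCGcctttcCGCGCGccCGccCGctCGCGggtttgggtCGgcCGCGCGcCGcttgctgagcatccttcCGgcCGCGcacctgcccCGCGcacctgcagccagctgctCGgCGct
Card10: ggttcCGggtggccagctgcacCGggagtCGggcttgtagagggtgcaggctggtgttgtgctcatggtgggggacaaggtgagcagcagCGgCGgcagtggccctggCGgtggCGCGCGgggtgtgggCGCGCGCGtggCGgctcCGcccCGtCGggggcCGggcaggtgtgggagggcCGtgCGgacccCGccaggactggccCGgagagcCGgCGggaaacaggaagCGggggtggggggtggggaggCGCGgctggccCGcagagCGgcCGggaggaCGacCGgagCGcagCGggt
Draxin: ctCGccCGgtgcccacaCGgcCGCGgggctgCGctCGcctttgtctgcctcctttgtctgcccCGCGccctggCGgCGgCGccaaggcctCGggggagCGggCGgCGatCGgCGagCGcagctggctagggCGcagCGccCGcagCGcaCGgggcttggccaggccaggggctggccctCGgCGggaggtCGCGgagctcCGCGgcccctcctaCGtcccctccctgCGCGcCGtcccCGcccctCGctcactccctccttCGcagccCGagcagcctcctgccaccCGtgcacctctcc
Slc9a3r2: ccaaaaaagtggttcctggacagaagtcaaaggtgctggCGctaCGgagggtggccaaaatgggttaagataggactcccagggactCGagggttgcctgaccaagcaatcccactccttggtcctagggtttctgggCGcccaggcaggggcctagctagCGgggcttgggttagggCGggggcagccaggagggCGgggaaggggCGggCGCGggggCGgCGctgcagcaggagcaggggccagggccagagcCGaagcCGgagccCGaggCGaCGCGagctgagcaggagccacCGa
Tinagl1: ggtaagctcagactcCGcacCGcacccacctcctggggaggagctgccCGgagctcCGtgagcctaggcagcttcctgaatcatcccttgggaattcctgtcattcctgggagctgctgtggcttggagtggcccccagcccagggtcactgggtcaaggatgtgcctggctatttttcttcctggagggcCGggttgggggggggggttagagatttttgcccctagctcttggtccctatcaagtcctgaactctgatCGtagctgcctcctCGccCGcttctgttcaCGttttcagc
Rara: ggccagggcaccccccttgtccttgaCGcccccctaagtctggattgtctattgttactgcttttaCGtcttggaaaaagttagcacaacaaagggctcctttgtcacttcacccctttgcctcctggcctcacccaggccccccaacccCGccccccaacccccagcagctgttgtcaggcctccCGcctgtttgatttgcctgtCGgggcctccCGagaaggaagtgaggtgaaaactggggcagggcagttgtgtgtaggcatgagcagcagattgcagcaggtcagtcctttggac
The Zfyve28 promoter (chr5:34288275-34288574, minus strand) held 48 CpG, and 1.22% of all promoters held as many or more. The Draxin promoter (chr4:148130649-148130948, minus strand) held 39, the Card10 promoter (chr15:78802993-78803292, minus strand) 34 and the Slc9a3r2 promoter (chr17:24650256-24650555, minus strand) 19. The Tinagl1 promoter (chr4:130175073-130175372, minus strand) held 9 and the Rara promoter (chr11:98964622-98964921, plus strand) 6, which is below the median of all promoters. A further Tinagl1 promoter, not printed, with its start site 699 bp from the region, held 18. All 6 were covered over their 300 bases by control H3K27me3, the Tinagl1 promoter in replicate 2 only and the others in both replicates. Control H3K4me1 covered 5 bases of the Slc9a3r2 promoter, 22 of the Tinagl1 promoter and none of the others.

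The regions were spread over 17 chromosomes and formed 46 loci when those within 10 kb were joined. They were 200 to 4950 bp wide (median 1225 bp, against 1300 bp for the other 12398 control regions), 32 of them (59.3%) overlapped a protein-coding gene, against 61.8% of the others, and 4 (7.41%) overlapped an IgG peak, against 8.14%. Chromosome 18 held 6 of the regions, which have no start sites in the reference table. The gene table has no exons, so intron and exon positions are not given. Among the cells' own markers, control H3K4me1 lay on 7 of 12 myeloid progenitor genes (Spi1, Gfi1, Elane, Kit, Csf3r, Csf2rb and Myb, but not Cebpa, Cebpe, Mpo, Prtn3 or Ctsg), 1 of 9 lymphoid genes (Ebf1), 1 of 6 erythroid and megakaryocyte genes (Klf1) and 3 of 6 macrophage and dendritic genes. The H3K27me3 lists of the Asxl1 guide cells stood apart: 4.73, 53.0 and 12.4 Mb were covered in replicates 1, 2 and 3, against 14.2 to 42.2 Mb in the other H3K27me3 libraries. H3K4me1 peaks covered 26.6 to 47.2 Mb and H2AK119ub peaks 11.8 to 39.1 Mb. These marks give no check of the editing: Asxl1 itself carried no H3K27me3 or H2AK119ub peak, and its H3K4me1 reached no more than 0.0378 of the gene's length, whichever library was read.

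Overlap was most often at an edge. In 30 regions control H3K27me3 reached 1 end, in 13 an H3K27me3 peak lay inside the region without reaching an end, and 11 (20.4%, exact 95% binomial interval 10.6 to 33.5%, which covers counting error only) lay wholly inside H3K27me3. The interval takes the regions as independent, although they formed 46 loci. None had H3K27me3 at both ends with a gap between. Some of the 30 edge overlaps were peaks that stopped flush with the end and lay wholly inside the region, crossing neither end. This held at Ccr10, Gpnmb, the first Itsn1 and the first Jazf1 region, and near Igf2r, Dnttip2 and Col28a1. The overlap was 100 to 2250 bp long (median 350 bp) and covered a median of 45.9% of the region. It was at least 50% in 25 regions and under 20% in 15.

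The 3 shapes differed in their H3K27me3. The whole regions were 250 to 2250 bp wide (median 500 bp). Their widest H3K27me3 peaks had a median of 5350 bp, and ran between 300 bp at the Cdkn2c region and 18700 bp beside Septin5. The edge regions had a median width of 1375 bp and met H3K27me3 peaks with a median width of 1225 bp. The internal ones were wider (median 1550 bp) and held H3K27me3 peaks of 200 to 650 bp. Shape and widths follow from the peaks that chose the regions and are given as a description.

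The largest overlaps were at genes of varied function. The region in Plekhh3 (chr11:101167201-101169450) lay wholly inside H3K27me3 over its 2250 bp. A region in 6430548M08Rik, called here after Zdhhc7, a palmitoyltransferase gene 12051 bp away, overlapped by 1400 bp (chr8:120115951-120117450), and the one 229 bp from Card10, a scaffold of NF-kappaB signalling, by 1250 bp (chr15:78803301-78804550). Of 3 regions at Mmp9, which encodes the gelatinase of neutrophil granules, the first lay 426 bp from the gene and overlapped over all of its 1050 bp (chr2:164938851-164939900). The second (chr2:164941451-164945450) overlapped by 800 bp in 2 separate stretches, and the third (chr2:164946701-164947900) by 1000 bp.

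**Figure D1:**
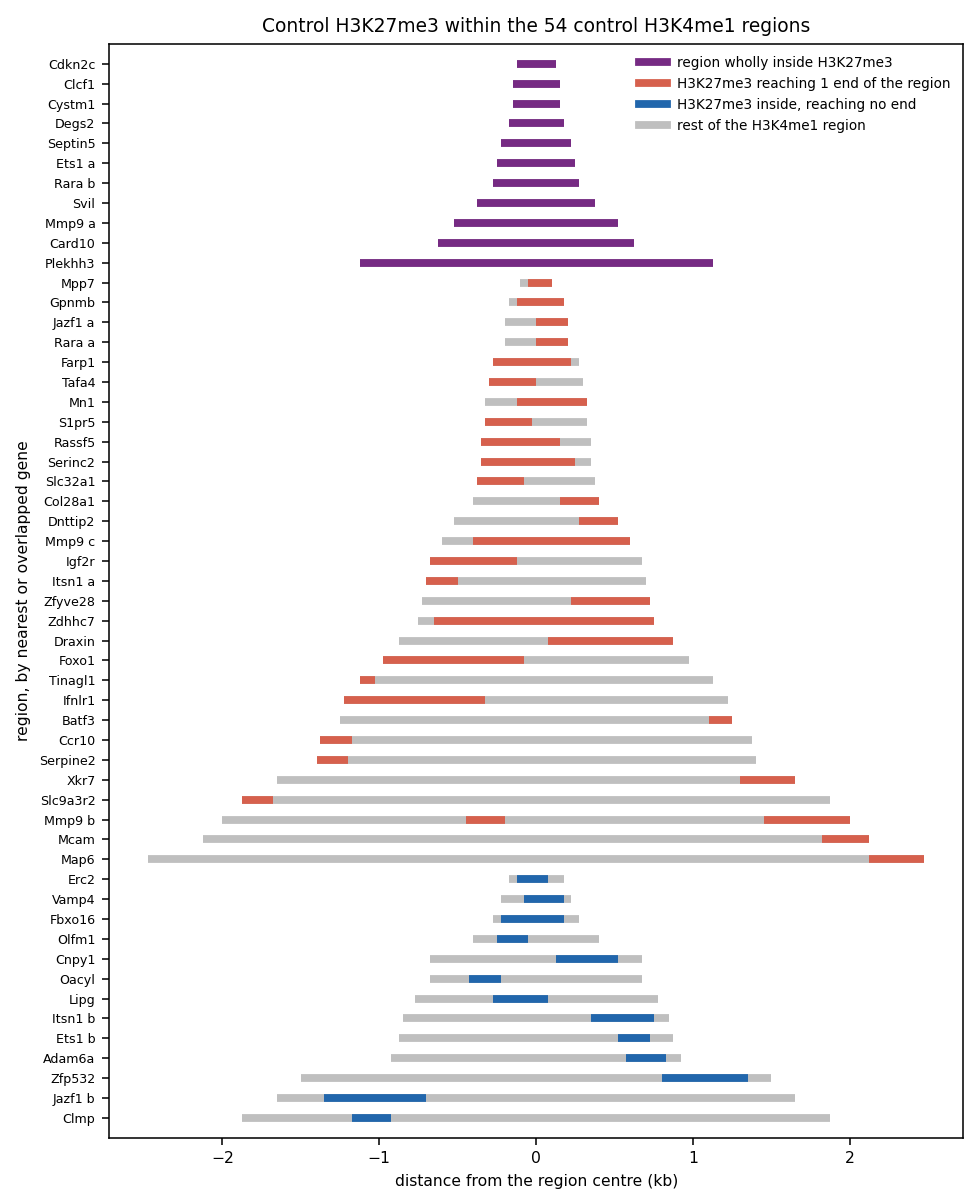
Each row is 1 of the 54 regions, drawn to scale around its centre (distance in kb): grey is H3K4me1 of control replicate 1 and colour the part in H3K27me3 of either control library, coloured by shape. The 11 whole regions are 250 to 2250 bp wide, the 30 edge overlaps sit at 1 end, and the 13 internal H3K27me3 peaks leave H3K4me1 on both sides.

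Replication of the overlap was partial. Control H3K27me3 of both replicates touched 25 regions, that of replicate 2 alone 25 and that of replicate 1 alone 4; replicate 2 covered 22.7 Mb and replicate 1 covered 15.9 Mb. The smallest overlaps kept were 100 bp beside Tinagl1, 150 bp beside Batf3 and 150 bp beside Mpp7. Just outside the rule, a region near Dennd2a ended where H3K27me3 began (gap 0 bp), another near Olfm1 lay 100 bp away and one near Fcgr3 150 bp away. The widest region kept was 4950 bp, in Map6, and the narrowest of 4 left out by the width limit was 5150 bp, near Plekha6. A further 24 peaks that touched H3K27me3 were left out because replicate 2 had no H3K4me1 peak there. The regions not touching H3K27me3 lay a median of 108 kb from it, and 18 of them lay within 1 kb.

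The 54 regions were looked up in 13 blood and chromatin gene lists, none of which had more than 61 control H3K4me1 regions. Over all control regions 0.434% touched H3K27me3. At that share most lists of such size would hold none, so an empty list shows no depletion. A region counted for a listed gene that it overlapped or lay within 5 kb of. Of 13 lists, 10 held no region: stem and progenitor genes, Hox clusters, monocyte and dendritic genes, cytokine receptors and JAK-STAT genes, chemokines, erythroid and mast cell genes, cell cycle genes, Polycomb and Asxl complex genes, developmental patterning factors, and scaffold, adhesion and guidance genes. Of 34 myeloid transcription factors, 20 had control H3K4me1 regions and 1, Rara, had regions touching H3K27me3, 2 of the list's 61. Of 25 neutrophil granule and surface genes, 13 had regions and Mmp9 alone had touching ones, 3 of 26. Of 26 lymphoid genes, 6 had regions and Foxo1, a forkhead factor, held 1 touching region of 8. The shares in these 3 lists were above 0.434% and were not tested. The lists are selections and not whole gene classes: Ccr10, a chemokine receptor gene that 1 of the 54 regions overlapped, Ifnlr1, Draxin and Card10 were not on them, and the region nearest Batf3, which was, lay too far away to count. Hox genes had no control H3K4me1 region of the rule at all, and the 79 developmental factors had 1.

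H2AK119ub was not used to choose the regions and lay over most of them. In control cells, 38 of the 54 (70.4%) had an H2AK119ub peak in both libraries, against 606 of the other 12398 (4.89%). Per library, the mark was found at 46 and 43 regions in double cells, 36, 43 and 44 in CSF3R cells, 36, 39 and 39 in Asxl1 guide cells, and 40 and 39 in control cells. The share among the 54 was 66.7 to 85.2%, and among the other regions 3.24 to 16.0%, so the ranges over the 10 libraries did not overlap. Altogether 28 regions had H2AK119ub in all 10 libraries, among them Plekhh3, Card10, Septin5, the second Rara and the third Mmp9 region. A further 3 had it in none: the region 11962 bp from Mpp7, the one 2724 bp from Cystm1 and the first Jazf1 region. No test was made over these regions.

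H3K4me1 was absent from many of them in double cells. The H3K4me1 peak was present at 26 and 26 of the 54 regions in double cells, 38, 42 and 44 in CSF3R cells, and 38, 29 and 37 in Asxl1 guide cells. All 54 had it in both control libraries, which the rule required, so no comparison with control was tested. In double cells 26 regions (48.1%) had no H3K4me1 peak in either library, against 20.7% of the other control regions. In CSF3R cells 7 (13.0%) had none in any library, against 7.25%, and in Asxl1 guide cells 11 (20.4%) had none, against 5.28%. Narrow peaks were missed more often in both sets: under 1 kb, 14 of 24 regions (58.3%) had none in double cells, against 32.3% of other regions of that width. At 1 kb or more, 12 of 30 (40.0%) had none, against 13.2%. Each double library alone lacked H3K4me1 at 28 regions, although replicate 1 covered 43.5 Mb and replicate 2 covered 30.0 Mb.

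**Figure D2:**
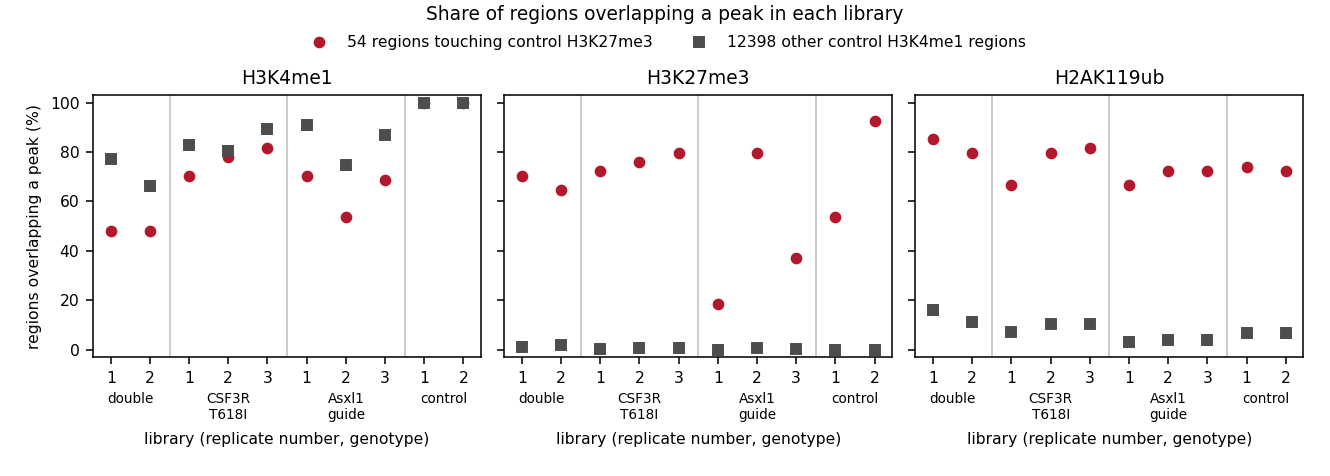
Points give the percentage of regions overlapped by a peak in each library (x axis: replicate numbers within genotypes), for the 54 regions (red circles) and the 12398 other control regions (grey squares). The red points lie below the grey ones for H3K4me1 in the 8 libraries other than control, which the rule fixed at 100%, and above them for H2AK119ub in all 10 and for H3K27me3 in the 8 libraries other than control, where the rule fixed the grey points at 0%.

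H3K27me3 was found at 38 and 35 of the 54 regions in double cells and at 39, 41 and 43 in CSF3R cells. It was found at 10, 43 and 20 in Asxl1 guide cells and at 29 and 50 in control cells. The 3 Asxl1 guide values had the same order as the covered lengths of those lists, 4.73, 53.0 and 12.4 Mb, and the part of list length in them was not tested. Only 5 regions had H3K27me3 in all 10 libraries: Plekhh3, Degs2, Fbxo16, Tafa4 and the region 50776 bp from Cdkn2c. At the Cdkn2c region, H3K27me3 and H2AK119ub covered the whole 250 bp in all libraries. H3K4me1 covered 1 and 0 of it in double cells, 1, 1 and 1 in CSF3R cells, 0, 0 and 0 in Asxl1 guide cells, and 1 and 1 in control cells. Its H3K4me1 was thus present in every library with the non-targeting guide, in no Asxl1 guide library and in 1 of 2 double libraries.

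Where H3K4me1 was missing in double cells, H3K27me3 was usually there. Of the 26 regions without H3K4me1 in either double library, 21 had H3K27me3 in both double libraries and 2 in neither. Of the 24 with H3K4me1 in both, 7 had H3K27me3 in both and 9 in neither. H2AK119ub had peaks in both double libraries at 20 of the 26 and 17 of the 24. The 26 were narrower (median 775 bp, against 1475 bp for the 24). Their control overlap was similar, at a median of 46.2% and 47.9%, and both control H3K27me3 libraries touched 12 of the 26 and 11 of the 24. In CSF3R cells, H3K27me3 was in every library at 4 of 7 regions without H3K4me1 and at 24 of 35 with H3K4me1 throughout. In Asxl1 guide cells it was in every library at 3 of 11 and 4 of 26. These are counts over regions of the same libraries, with no test.

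In terms of marks called in every library of a genotype, 21 regions had H3K27me3 alone in double cells, 9 had H3K4me1 alone, 7 had both, 2 had neither, and at 15 the replicates differed. In CSF3R cells 24 had both marks, 4 had H3K27me3 alone, 4 H3K4me1 alone, 2 neither, and 20 differed between replicates. In Asxl1 guide cells 41 differed between replicates, 5 had H3K4me1 alone, 4 both, 3 H3K27me3 alone and 1 neither. In control cells 25 had both marks in every library and 29 differed, in H3K27me3 only, since the rule required H3K4me1 in both libraries. With 3 libraries a genotype has more ways to differ than with 2, so counts of complete agreement are not on equal terms. Among the 24 regions with both marks in CSF3R cells, 5 had H3K27me3 alone in double cells (Card10, the second Itsn1, Zfp532, Oacyl and Tafa4), 3 had H3K4me1 alone (Serpine2, the second Rara and the third Mmp9), 6 had both, 1 had neither and 9 differed.

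**Figure D3:**
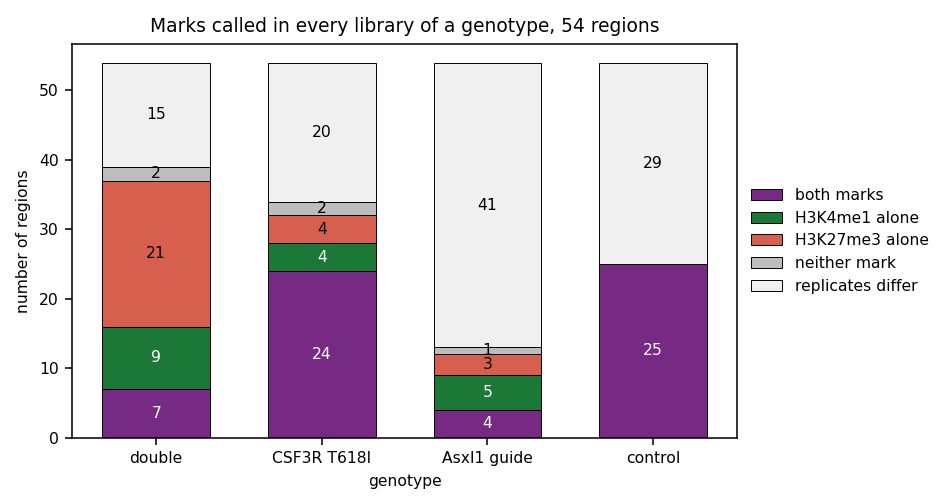
Stacked bars count the 54 regions by which of H3K4me1 and H3K27me3 was called in every library of the genotype. Double cells have 21 regions with H3K27me3 alone and 7 with both marks, CSF3R cells have 4 and 24.

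For tests, the value was the fraction of a region covered by peaks of the mark in each library, from 0 to 1, fitted with limma over all control H3K4me1 regions in which 2 or more libraries of the fit reached 0.2. Differences are double minus the other group, and a region was called at an adjusted p under 0.05 (Benjamini-Hochberg over all regions tested). For H3K4me1 and H3K27me3 the control libraries, which chose the regions, were left out of the fit. In limma, the variance of each region was drawn towards that of all regions tested. Some compared groups had no spread, as for H3K4me1 near Cystm1, H3K27me3 at the second Rara region and H2AK119ub near Igf2r. The SE there came from other regions or from the groups not compared. All 54 regions are drawn in the heatmap of covered fractions, including those that did not reach this limit. Of the 26 calls named below with alternatives, 11 were kept without each library in turn, and 21 were lost when presence of any peak replaced the fraction. Where every compared library had a peak, as for H2AK119ub at Zdhhc7 and Batf3, presence fixed the difference at 0 and no call was possible.

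**Figure D4:**
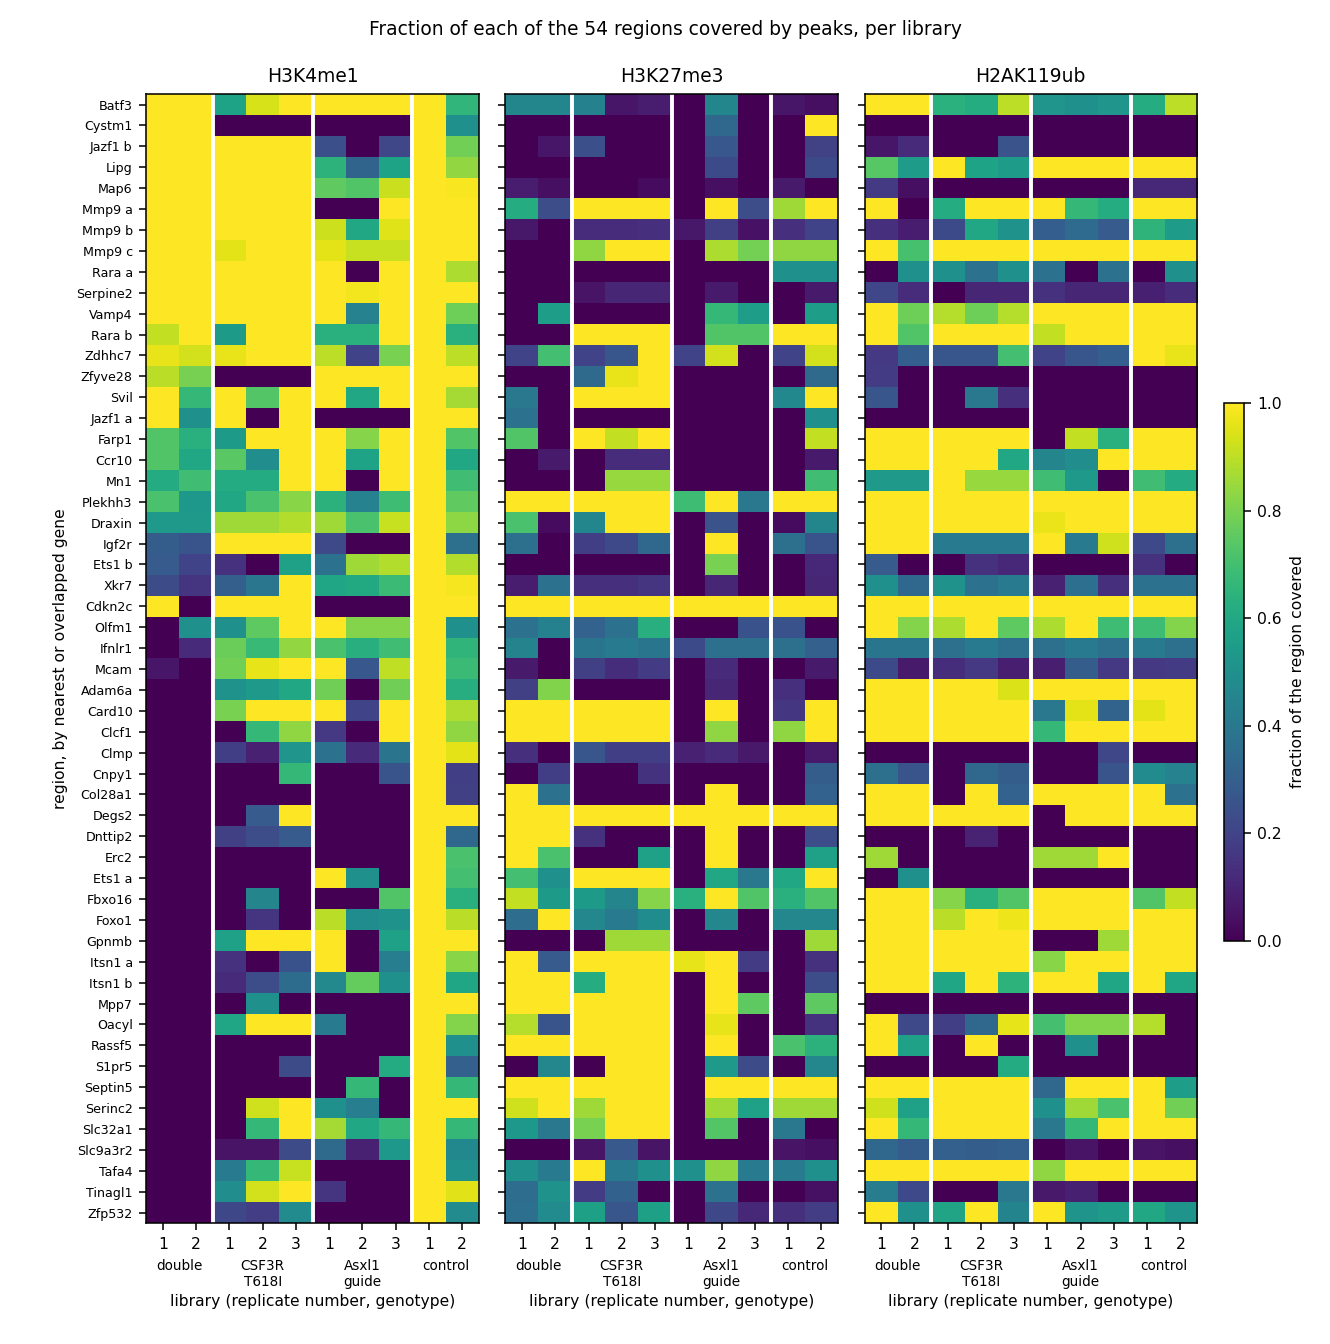
Colour gives the fraction of each region (rows) covered by peaks in each library (columns, replicate numbers under genotypes), from 0 to 1, for 3 marks. Rows are ordered by H3K4me1 in double cells. The lower 26 rows have no H3K4me1 there, and 21 of them have H3K27me3 in both double libraries.

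H3K4me1 at 49 of the 54 regions could be tested. Between double and CSF3R cells, 5 of the 49 regions fell (10.2%), against 4.69% of all 11929 regions tested, and 2 rose (4.08%), against 0.511%. The median difference was -0.13 over the 49 and -0.08 over all tested. Between double and Asxl1 guide cells, 4 of the 49 fell (8.16%), against 8.43% of all regions, and 3 rose (6.12%), against 3.1%, so the share that fell was near that of all regions. Without double replicate 1, 4 were called against CSF3R and 3 against the Asxl1 guide, and without double replicate 2, 3 and 3. Without CSF3R replicate 2, 4 were called against CSF3R, and without Asxl1 guide replicate 2, 11 against the Asxl1 guide (3 higher, 8 lower).

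The region 5407 bp from Ifnlr1, the gene of the interferon lambda receptor, fell in double cells against both single genotypes (chr4:135678601-135681050). H3K4me1 covered 0 and 0.122 of it in double cells, 0.776, 0.674 and 0.837 in CSF3R cells, 0.714, 0.633 and 0.694 in Asxl1 guide cells, and 1 and 0.653 in control cells. The double libraries lay below all others. The differences were -0.70 ± 0.07 against CSF3R (SE, adjusted p = 0.00323, limma) and -0.62 ± 0.07 against the Asxl1 guide (adjusted p = 0.00256). H2AK119ub covered 0.367 to 0.408 of it in all libraries.

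Draxin, which encodes an axon guidance protein, also fell against both (chr4:148128301-148130050). Its H3K4me1 was 0.543 and 0.543 in double cells, 0.857, 0.857 and 0.886 in CSF3R cells, 0.857, 0.714 and 0.914 in Asxl1 guide cells, and 1 and 0.829 in control cells. The double libraries lay below all others, and the other genotypes overlapped. The differences were -0.32 ± 0.06 (adjusted p = 0.0443, limma) and -0.29 ± 0.06 (adjusted p = 0.0389). Both calls were lost without either double library or without any 1 CSF3R library, the first also without Asxl1 guide replicate 1 and the second without Asxl1 guide replicates 1 or 3, while the differences stayed between -0.34 and -0.24.

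Against CSF3R cells alone, 3 more regions fell. The region 379 bp from Tinagl1, which encodes a matrix protein, had H3K4me1 over 0 and 0 in double cells, 0.489, 0.933 and 1 in CSF3R cells, 0.156, 0 and 0 in Asxl1 guide cells, and 1 and 0.956 in control cells. CSF3R and control libraries were high and the others low (chr4:130175501-130177750, difference -0.81 ± 0.16, adjusted p = 0.0451, limma). Without the CSF3R libraries, the higher group, the Tinagl1 region would not have been tested. That call was lost without any 1 library other than CSF3R replicate 1, at differences of -0.97 to -0.71. The region 9545 bp from Igf2r, the gene of a receptor that sorts lysosomal enzymes, had 0.296 and 0.259 in double cells, 1, 1 and 1 in CSF3R cells, 0.222, 0 and 0 in Asxl1 guide cells, and 1 and 0.37 in control cells (chr17:12779251-12780600, difference -0.72 ± 0.08, adjusted p = 0.00473). An IgG peak overlapped 50 bp of it. The region 47930 bp from Dnttip2 had 0 and 0 in double cells and 0.19, 0.238 and 0.286 in CSF3R cells (chr3:122333201-122334250, difference -0.24 ± 0.04, adjusted p = 0.0254). It was also at 0 in all 3 Asxl1 guide libraries, against 1 and 0.333 in control cells. The Dnttip2 region too was tested only through the CSF3R libraries. No alternative was run for this region.

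Against Asxl1 guide cells alone, 2 more fell. The region in Foxo1 (chr3:52341551-52343500) had H3K4me1 over 0 and 0 in double cells, 0, 0.154 and 0 in CSF3R cells, 0.897, 0.487 and 0.513 in Asxl1 guide cells, and 1 and 0.897 in control cells. The libraries with CSF3R T618I were low and those with the empty vector high. Without the Asxl1 guide libraries, the higher group, the Foxo1 region would not have been tested. The difference was -0.63 ± 0.13 (adjusted p = 0.0341, limma), and the call was lost without either double library, any 1 CSF3R library or Asxl1 guide replicate 3, at -0.71 to -0.50. H3K27me3 covered 0.359 and 1 of the Foxo1 region in double cells, 0.462, 0.41 and 0.487 in CSF3R cells, 0, 0.462 and 0 in Asxl1 guide cells, and 0.462 and 0.462 in control cells. The second region in Itsn1, an endocytic scaffold gene, had H3K4me1 over 0 and 0 in double cells, 0.118, 0.235 and 0.353 in CSF3R cells, 0.471, 0.765 and 0.5 in Asxl1 guide cells, and 1 and 0.588 in control cells (chr16:91793651-91795350). Its difference from the Asxl1 guide was -0.58 ± 0.11 (adjusted p = 0.0235), lost without either double library or Asxl1 guide replicate 3.

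The regions that rose were fewer. The region 2724 bp from Cystm1 was covered in full in both double libraries and not at all in any CSF3R or Asxl1 guide library, against 1 and 0.5 in control cells (chr18:36345601-36345900, 300 bp wide). Its differences were 1 ± 0.03 against both (adjusted p = 2.27e-05 against CSF3R and 7.4e-06 against the Asxl1 guide, limma). Without the double libraries, the higher group, the Cystm1 region would not have been tested, so these p-values are no independent support. The second Jazf1 region, in a zinc finger gene, had 1 and 1 in double cells, 1, 1 and 1 in CSF3R cells, 0.242, 0 and 0.212 in Asxl1 guide cells, and 1 and 0.788 in control cells (chr6:52865301-52868600, 0.85 ± 0.08 against the Asxl1 guide, adjusted p = 0.00126). The Asxl1 guide libraries alone were low there. The region 56172 bp from Lipg, the gene of endothelial lipase, had 1 in all double and CSF3R libraries, 0.645, 0.323 and 0.581 in Asxl1 guide cells, and 1 and 0.839 in control cells (chr18:74881601-74883150, 0.48 ± 0.10, adjusted p = 0.0264). The Lipg call was lost without either double library, any 1 CSF3R library or Asxl1 guide replicate 3, at differences of 0.39 to 0.55.

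At Zfyve28, which encodes an endosomal protein that restrains EGF receptor signalling, H3K4me1 and H3K27me3 changed in opposite directions in double against CSF3R cells (chr5:34284451-34285900). H3K4me1 covered 0.897 and 0.793 of the region in double cells, 0, 0 and 0 in CSF3R cells, 1, 1 and 1 in Asxl1 guide cells, and 1 and 1 in control cells. The CSF3R libraries alone lacked it, and the difference was 0.85 ± 0.04 (adjusted p = 0.000225, limma). H3K27me3 covered 0 and 0 of it in double cells, 0.345, 0.966 and 1 in CSF3R cells, 0, 0 and 0 in Asxl1 guide cells, and 0 and 0.345 in control cells. The region entered the H3K27me3 fit through the CSF3R libraries alone, the higher group, so that test is not neutral. The difference was -0.77 ± 0.20 (adjusted p = 0.0375), lost without any 1 library of the fit other than CSF3R replicate 1, at -0.98 to -0.66. The H3K27me3 call was also lost with no filter. The promoter printed above, 2424 bp away, lay wholly inside H3K27me3 in all 10 libraries. In double cells H3K27me3 began 1575 and 1975 bp from the centre of the region, beyond its end at 725 bp. In CSF3R cells it began at 225, -675 and -725 bp from the centre (positive towards the promoter), so that 2 of the 3 libraries covered nearly all of the region.

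H3K27me3 at 39 of the 54 regions could be tested, among 129 regions in all. Between double and CSF3R cells 3 of the 39 fell (7.69%), against 8.53% of all tested, and none rose in limma, against 17.8% (6 of the 39 had an unadjusted p under 0.05, in either direction). The median difference was -0.04 over the 39 and 0.02 over the 129. All 129 entered through the 3 genotypes other than control, and those not touching control H3K27me3 had no such peak in control cells. The share of all regions is thus no neutral comparison. Between double and Asxl1 guide cells limma called none of the 39 in either direction (3 at an unadjusted p under 0.05), against 21.7% of all regions higher and 0% lower. Without Asxl1 guide replicate 2, the longest H3K27me3 list, 8 were called higher, and between double and CSF3R cells 6 were called (1 higher, 5 lower). Without CSF3R replicate 2, 1 was called against each of CSF3R and the Asxl1 guide, without CSF3R replicate 3, 1 against CSF3R, and against the Asxl1 guide 2 were called lower without Asxl1 guide replicate 1 and 2 higher without double replicate 2.

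The second Rara region, in the gene of the retinoic acid receptor alpha, had no H3K27me3 in double cells (chr11:98963751-98964300). The mark covered 0 and 0 of it in double cells, 1, 1 and 1 in CSF3R cells, 0, 0.727 and 0.727 in Asxl1 guide cells, and 1 and 1 in control cells. The difference from CSF3R was -1 ± 0.23 (adjusted p = 0.0224, limma). The call was lost without any 1 double or CSF3R library, at the same difference, with adjusted p of 3.07e-07 to 0.178 over the alternatives. H3K4me1 stayed on the region in every library, at 0.909 and 1 in double cells, 0.545, 1 and 1 in CSF3R cells, 0.636, 0.636 and 1 in Asxl1 guide cells, and 1 and 0.636 in control cells. H2AK119ub covered 1 and 0.727 of it in double cells and at least 0.909 in all other libraries. The Rara promoter, 572 bp away, was inside H3K27me3 in neither double library, in 1 of 3 CSF3R libraries, in no Asxl1 guide library and in both control libraries.

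The first Rara region (chr11:98959301-98959700) had H3K27me3 over 0.5 in both control libraries and over 0 in the 8 others. Its H3K4me1 was 1 in every double and CSF3R library, 1, 0 and 1 in Asxl1 guide cells, and 1 and 0.875 in control cells. The 2 Rara regions touched the same H3K27me3 peak in control replicate 2 and separate peaks in control replicate 1, and are not independent.

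**Figure D5:**
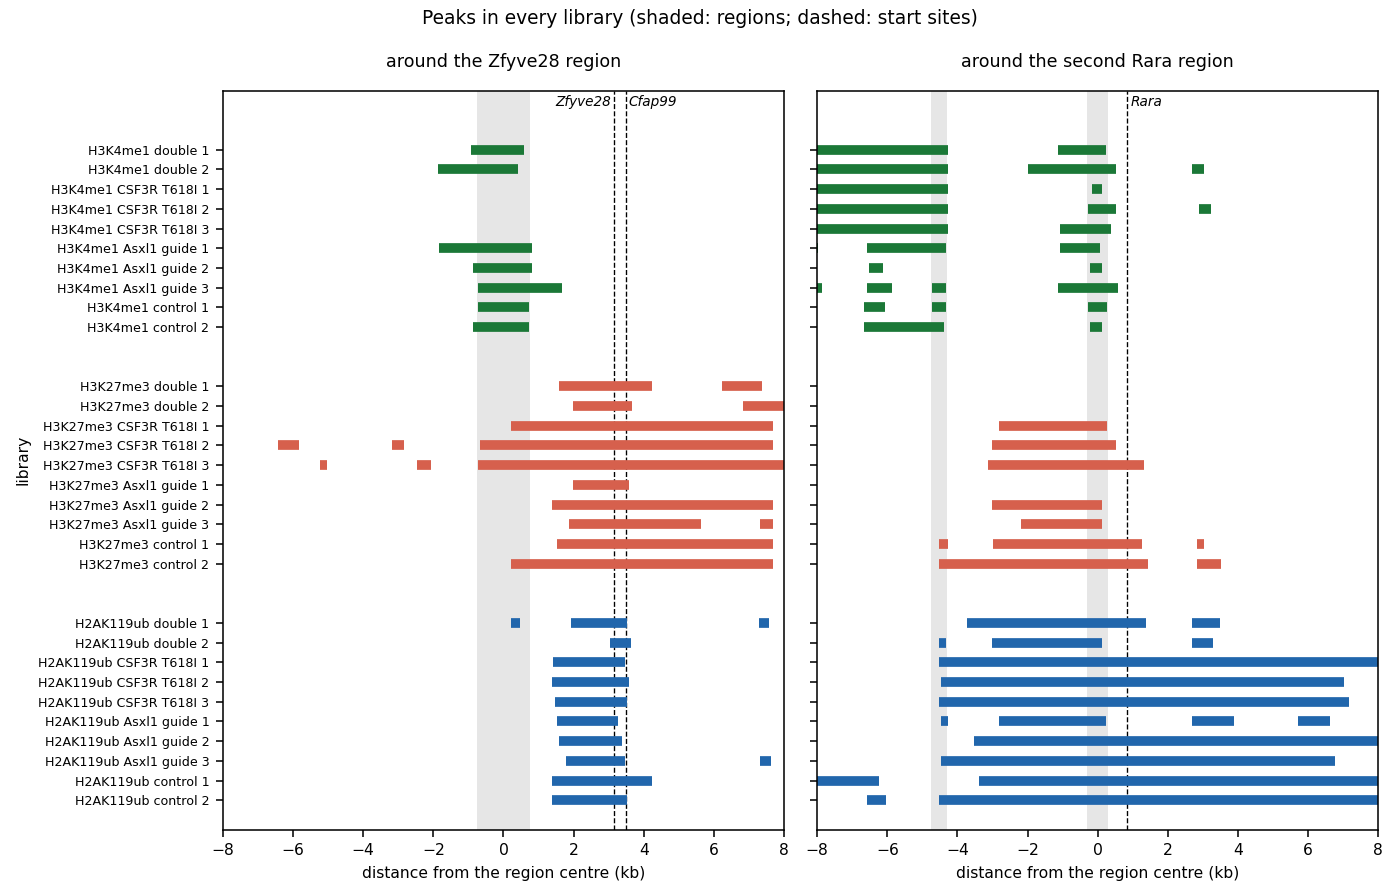
Horizontal bars are the peaks of each library (rows; double, CSF3R T618I, Asxl1 guide and control within each mark) within 8 kb of the centre of the Zfyve28 region (left) and the second Rara region (right); shading marks the 54 regions and dashed lines start sites. At Zfyve28 the H3K27me3 of CSF3R cells reaches over the region and that of double cells does not, and at Rara both double libraries have no H3K27me3.

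The region 1417 bp from Svil, the gene of the actin-binding protein supervillin, had H3K27me3 over 0.4 and 0 in double cells, 1, 1 and 1 in CSF3R cells, 0, 0 and 0 in Asxl1 guide cells, and 0.467 and 1 in control cells (chr18:4918301-4919050). The CSF3R libraries were higher than the double ones, and the difference was -0.80 ± 0.11 (adjusted p = 0.00257, limma). Without the CSF3R libraries the Svil region would not have been tested, so that test is not neutral. H3K4me1 was present there in every library. At the third Mmp9 region, where an IgG peak overlapped 200 bp, no call was made: it had H3K27me3 over 0 and 0 in double cells, 0.833, 1 and 1 in CSF3R cells, 0, 0.875 and 0.792 in Asxl1 guide cells, and 0.833 and 0.833 in control cells. Its difference was -0.94 ± 0.27 against CSF3R (adjusted p = 0.0518, limma) and, against the Asxl1 guide, -0.56 ± 0.27 (adjusted p = 0.225). The same comparison at Clcf1, the gene of an interleukin-6 family cytokine, gave 0.72 ± 0.26 (adjusted p = 0.135), and near Zfp532 it gave 0.31 ± 0.12 (adjusted p = 0.141). Values at the Clcf1 region were 1 and 1 in double cells, 1, 1 and 1 in CSF3R cells, 0, 0.833 and 0 in Asxl1 guide cells, and 0.833 and 1 in control cells. Without Asxl1 guide replicate 2, the Clcf1 difference was 1 (adjusted p = 1.68e-08, limma). No group then had any spread, so that p-value rests on the variance of other regions.

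H2AK119ub at 42 of the 54 regions could be tested, with control included, among 1328 regions. In double against control cells 2 of the 42 rose (4.76%), against 24.8% of all tested, and 2 fell (4.76%), against 2.26%. The median difference was 0 over the 42 and 0.17 over all tested. In double against CSF3R cells 2 rose (4.76%), against 17.8%, and none fell, against 3.09%. In double against Asxl1 guide cells 2 rose (4.76%), against 32.4%, and none fell, against 0.452%. In CSF3R against control cells 1 rose (2.38%), against 4.67%, and none fell, against 0.979%. In Asxl1 guide against control cells 1 fell (2.38%), against 3.61%, and none rose, against 0.301%. At an unadjusted p under 0.05, in either direction, limma gave 6, 4, 6, 2 and 8 of the 42 in these 5 comparisons in turn. Counts this small moved with most single libraries, to between 0 and 5 of the 42 when 1 was left out. In control cells H2AK119ub covered 18 of the 42 in full, so these could not rise against control. Other regions could enter the 1328 through the double libraries alone. The double libraries had peaks at 1979 and 1391 of the 12398 other regions, against 402 to 484 in Asxl1 guide libraries. The shares of all regions are thus no neutral comparison. The interaction of guide and CSF3R called none of the 42 in limma (3 at an unadjusted p under 0.05), against 15.8% of all tested above 0 and 0.904% below.

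The region 246 bp from Slc9a3r2, the gene of a PDZ scaffold of membrane transporters, rose in H2AK119ub in CSF3R against control cells and in double against both Asxl1 guide and control cells (chr17:24650551-24654300). The mark covered 0.333 and 0.293 of it in double cells, 0.307, 0.293 and 0.307 in CSF3R cells, 0, 0.0533 and 0 in Asxl1 guide cells, and 0.0533 and 0.0400 in control cells. The differences were 0.27 ± 0.03 for double against control (adjusted p = 0.000362, limma), 0.30 ± 0.03 for double against the Asxl1 guide (adjusted p = 0.00011) and 0.26 ± 0.03 for CSF3R against control (adjusted p = 0.00119). Its H3K4me1 was 0 and 0 in double cells, 0.0533, 0.0533 and 0.227 in CSF3R cells, 0.347, 0.0933 and 0.533 in Asxl1 guide cells, and 1 and 0.467 in control cells. An IgG peak overlapped 250 bp of the region. Its promoter lay in H3K27me3 in all 3 CSF3R and both control libraries and in no double or Asxl1 guide library.

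H2AK119ub at the Zdhhc7 region fell against control in double and Asxl1 guide cells and was also lower in CSF3R cells, without a call. The mark covered 0.167 and 0.3 of it in double cells, 0.267, 0.267 and 0.7 in CSF3R cells, 0.2, 0.267 and 0.3 in Asxl1 guide cells, and 1 and 0.967 in control cells, so control stood above all other libraries. The differences were -0.75 ± 0.15 for double against control (adjusted p = 0.00807, limma; lost without double replicate 1) and -0.73 ± 0.13 for the Asxl1 guide against control (adjusted p = 0.0347). CSF3R against control gave -0.57 ± 0.13 (adjusted p = 0.0592). The call for the Asxl1 guide was lost without any 1 control or Asxl1 guide library, at -0.75 to -0.70. The second Mmp9 region fell in double against control cells, with 0.138 and 0.0750 in double cells, 0.225, 0.6 and 0.512 in CSF3R cells, 0.3, 0.35 and 0.288 in Asxl1 guide cells, and 0.65 and 0.55 in control cells. Its difference was -0.49 ± 0.11 (adjusted p = 0.0180), lost without any 1 double or control library, at -0.54 to -0.44.

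Around Igf2r, H2AK119ub rose as H3K4me1 fell in double against CSF3R cells. H2AK119ub covered 1 and 1 of the region in double cells, 0.407, 0.407 and 0.407 in CSF3R cells, 1, 0.407 and 0.926 in Asxl1 guide cells, and 0.222 and 0.37 in control cells. The difference was 0.59 ± 0.17 against CSF3R (adjusted p = 0.0456, limma) and 0.70 ± 0.18 against control (adjusted p = 0.0279). The first was lost without any 1 library other than Asxl1 guide replicates 1 and 2, and the second without any 1 double or control library, at 0.63 to 0.78. The region 22658 bp from Batf3, a transcription factor of dendritic cells, had H2AK119ub over 1 and 1 in double cells, 0.64, 0.62 and 0.9 in CSF3R cells, 0.52, 0.5 and 0.52 in Asxl1 guide cells, and 0.62 and 0.9 in control cells (chr1:191131601-191134100). It rose by 0.49 ± 0.11 against the Asxl1 guide (adjusted p = 0.0119), a call lost without either double library, and its interaction was 0.53 ± 0.15 (adjusted p = 0.0568). The region in Fbxo16, an F-box gene, had 1 and 1 in double cells, against 0.818, 0.636 and 0.727 in CSF3R cells (chr14:65294301-65294850, 0.27 ± 0.07, adjusted p = 0.0261, limma). Its values were also 1, 1 and 1 in Asxl1 guide cells, and 0.727 and 0.909 in control cells. That call was lost without any 1 library other than CSF3R replicate 1 and the 2 control libraries, at 0.23 to 0.32.

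Several regions had the same call in every library of 1 genotype without passing or entering a test. Rassf5, which encodes a Ras effector of leukocyte adhesion, had H3K4me1 in no double, CSF3R or Asxl1 guide library, against 1 and 0.5 in control cells (chr1:131236501-131237200). H3K27me3 covered all of it in both double and all 3 CSF3R libraries, 0, 1 and 0 of it in Asxl1 guide cells, and 0.714 and 0.643 in control cells. The regions in Erc2 and near Col28a1 also had no H3K4me1 outside control cells. The Card10 region had H3K4me1 over 0 and 0 in double cells, 0.8, 1 and 1 in CSF3R cells, 1, 0.2 and 1 in Asxl1 guide cells, and 1 and 0.88 in control cells. Its H3K27me3 was 1 in all double and CSF3R libraries, 0, 1 and 0 in Asxl1 guide cells, and 0.16 and 1 in control cells.

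By contrast, 15 regions had H3K4me1 in all 10 libraries, among them Serpine2, Batf3, Plekhh3, the second Mmp9 region, the third Mmp9 region, the second Rara region and Map6. At Plekhh3 both Polycomb marks were there as well: H3K27me3 covered 1 and 1 of the region in double cells, 1, 1 and 1 in CSF3R cells, 0.689, 1 and 0.4 in Asxl1 guide cells, and 1 and 1 in control cells, and H2AK119ub covered all of it in every library. H3K4me1 covered 0.711 and 0.533 of it in double cells, 0.6, 0.711 and 0.822 in CSF3R cells, 0.644, 0.444 and 0.689 in Asxl1 guide cells, and 1 and 0.756 in control cells. The genotypes overlapped there. Within 1 gene the regions could differ: the first Mmp9 region had H3K4me1 over 1 in both double and all CSF3R libraries, 0, 0 and 1 in Asxl1 guide cells and 1 and 1 in control cells, while the second had it over 0.6 to 1 in every library.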

How the data were processed

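Peaks of H3K4me1, H3K27me3 and H2AK119ub from 30 CUT&Tag libraries and a merged list of 2 IgG libraries were used as deposited. The values are of another kind than counts or signal: the authors deposited positions in steps of 50 bp (at least 200 bp), with no score, height or read count. Per the submitters' processing notes, Bowtie2 2.4.1, deepTools 3.5 and mm10 were used; the peak caller is not given in the sources used here. Depth is unknown, so no counting floor can be given and a longer list may reflect deeper sequencing.

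The fraction of each of 12452 control H3K4me1 regions covered by peaks was computed per library (Python 3.11.15 with pandas 2.3.3, numpy 2.4.6 and scipy 1.17.1; figures with matplotlib 3.10.9) and fitted in limma 3.58.1 (R 4.3.3) with 1 mean per group and 2-sided tests. The fit was tested on simulated data. Genes and start sites came from RefSeq GRCm38.p6; regions were named by the gene overlapped, else the nearest, genes with Gm or Rik names only where no other lay within 50 kb. Regions named are, per test, up to 4 rises and 4 falls by size (where none passed, the 2 highest and 2 lowest by p), those at listed genes, the 5 largest overlaps and those nearest each limit of the rule; Dnttip2 (the fall of smallest size in its test) and the regions described only by their calls were chosen after their values were seen. Members, lists and tests were chosen with earlier results of these data known. The labels give no shared batch. Alternatives were a 5 kb window, no filter, IgG-overlapping regions left out, covered length as covariate, a replicate block, control libraries in all fits, any overlap, other limits of the rule, and leaving out each library.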

Additional observations from a re-analysis of the deposited data

How the results depend on the processing

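Of 509 repeats of the differences named, 365 kept the side of the threshold, 132 lost the call, 12 gained one, and none took the opposite sign. A difference of 0, as any overlap gives where every library has a peak, was not counted as a reversal. Leaving out 1 library gave, in members called, 1 to 6 for H3K27me3 in double against CSF3R and 0 to 8 against the Asxl1 guide, 3 to 9 and 3 to 11 for H3K4me1, and for H2AK119ub 1 to 2 and 1 to 5, 2 to 5 for double against control, 0 to 2 for the Asxl1 guide and 1 to 2 for CSF3R against control, and 0 to 2 for the interaction. A group left with 1 library was assumed to vary like the others. With a replicate block, H3K27me3 gave 1 and 1, H3K4me1 4 and 3, and H2AK119ub 0 against CSF3R and 2 against control, and 12 of the 26 calls named were lost. The numbers are not shown to pair libraries: deviations of same-numbered libraries from their group means correlated at 0.01 to 0.25 for H3K4me1 (mean 0.10, against -0.05 for different numbers), -0.24 to 0.20 for H3K27me3 and -0.06 to 0.03 for H2AK119ub. With covered length as covariate H3K27me3 gave 6 and 4, H3K4me1 against CSF3R 4, and H2AK119ub 0 for the Asxl1 guide against control and 1 for double against the Asxl1 guide. A 5 kb window gave 6 and 1 for H3K27me3, and for H2AK119ub 5 against CSF3R, 10 against the Asxl1 guide, 7 against control, 2 for CSF3R against control and 1 for the interaction. With no filter H2AK119ub gave 0 for the Asxl1 guide against control, 1 for double against CSF3R and 1 for the interaction. Without IgG-overlapping regions it gave 0 for CSF3R against control and 1, 1 and 2 for double against CSF3R, Asxl1 guide and control. Any overlap gave 1 against CSF3R, 0 against control and 1 for the interaction. The cause of these moves was not tested.

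Counts of regions without H3K4me1 in double cells were 28 with either library alone, and of H3K27me3 alone 24, alternatives chosen after seeing the data. Regions at least 50% covered numbered 25, of which 44.0% lay wholly inside, and 25 touched both control H3K27me3 libraries, of which 40.0% did. Leaving out H3K27me3 peaks under 400 bp kept 37, and starting from replicate 2 gave 48, of which 47 were shared. With 2 or 3 libraries a group and no signal values, presence of a peak cannot be told from a level near the caller's threshold.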
